A study of Homo sapiens with 8 samples.

Results

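A set of 9 genes known as identity markers or retinoid genes of hepatic stellate cells (HSCs) was read in LX-2 cells, an immortalized human HSC line, on a soft or a stiff matrix. The 9 genes were taken by name and not by a threshold on their values, although earlier results of these data were known when they were chosen: PDGFRA and PDGFRB, the receptors for platelet-derived growth factor (PDGF); DES, VIM and GFAP, which encode the intermediate filament proteins desmin, vimentin and glial fibrillary acidic protein; NGFR, the low-affinity neurotrophin receptor p75; LRAT, the enzyme that esterifies retinol for storage; and HAND2 and LHX2, transcription factors of the stellate lineage. All 9 had a row in the count and FPKM tables, out of 25369 genes.

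Every library came from wild-type LX-2 cells in serum-containing medium. The cells had been grown on plastic and were reseeded on fibronectin-coated polyacrylamide hydrogels of about 2 kPa (soft) or 40 kPa (stiff), with no drug or gene manipulation in any of the 8 libraries. The 4 conditions were soft at 2 days, stiff at 2 days, soft at 4 days and stiff at 4 days, with 2 libraries each, and no library of cells on plastic or of primary HSCs was analysed here. LX-2 is a single line, so the libraries repeat a culture and not a donor.

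HSCs lie between the hepatocytes and the sinusoidal endothelium, and in the healthy liver they hold most of the body's vitamin A as retinyl esters in lipid droplets. Retinol enters the cell, binds a cytosolic carrier and is esterified by LRAT, while the oxidation of retinol through retinal gives retinoic acid, the ligand of the RAR receptors. In injury the cells lose these droplets, become responsive to PDGF through PDGFRB and turn into matrix-producing myofibroblasts. Desmin and GFAP are markers of quiescent HSCs in rodents, and their use in human cells is less firm.

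The 9 genes split into 5 that were clearly detected in every library and 4 at or near 0. VIM, PDGFRB, LHX2, NGFR and HAND2 had at least 93 counts in each of the 8 libraries. DES and LRAT had at most 2 counts and 1 count in any library, PDGFRA 2 to 23 and GFAP 2 to 16. Of the markers in this set, the labelled HSC line thus showed vimentin, PDGFRB, p75 and the lineage factors, while desmin and LRAT were not detectable above the floor and PDGFRA and GFAP were barely detected.

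The sequences just upstream of 3 of these genes are shown to set the gene with the highest level beside a receptor of intermediate level and the retinol-esterifying gene that was nearly without reads. RefSeq promoter windows (GRCh38.p14) matched 6 of the 9 members, with none for DES, GFAP or NGFR, and the 250 bases that end just before the start site are printed 5′ to 3′ on the gene's strand. VIM lies forward at chr10:17227991-17228240, PDGFRB reverse at chr5:150155846-150156095 and LRAT forward at chr4:154743750-154743999. Capitals mark a GC box (GGGCGG) or a CCAAT box (CCAAT), searched on both strands.
VIM: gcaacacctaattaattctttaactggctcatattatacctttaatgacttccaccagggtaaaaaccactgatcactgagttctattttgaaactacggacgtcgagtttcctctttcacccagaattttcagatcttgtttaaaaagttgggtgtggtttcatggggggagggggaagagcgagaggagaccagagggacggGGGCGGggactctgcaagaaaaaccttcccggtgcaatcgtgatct
PDGFRB: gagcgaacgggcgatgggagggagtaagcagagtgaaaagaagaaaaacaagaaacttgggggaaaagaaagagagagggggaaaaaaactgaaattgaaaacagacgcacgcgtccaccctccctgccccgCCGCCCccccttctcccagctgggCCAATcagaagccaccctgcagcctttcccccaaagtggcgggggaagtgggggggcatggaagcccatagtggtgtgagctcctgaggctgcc
LRAT: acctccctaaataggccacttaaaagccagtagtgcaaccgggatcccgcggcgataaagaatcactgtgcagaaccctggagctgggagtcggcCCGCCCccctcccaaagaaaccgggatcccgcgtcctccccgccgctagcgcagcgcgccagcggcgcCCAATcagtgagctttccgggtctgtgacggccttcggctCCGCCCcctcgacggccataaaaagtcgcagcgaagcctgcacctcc
The VIM window held 8 CpG dinucleotides and 1 GC box, the PDGFRB window 9 CpG, 1 CCAAT box and 1 GC box, and the LRAT window 24 CpG, 1 CCAAT box and 2 GC boxes. The median of all 35116 windows was 11 CpG, and a GC box occurred in 42.6% and a CCAAT box in 32.0% of them. No match to the retinoid-type nuclear receptor half-site AGGTCA, found in 12.1% of all windows, or to TATAAA, found in 10.7%, lay in any member's window. The loose AP-1 pattern TGANTCA, with any base at N, lay in 6.57% of all windows. Among the member windows it occurred once, as TGAATCA, in the window of 1 of the 2 PDGFRA start sites. The middle A of this match is not the C or G of the usual AP-1 site. These are matches of letters in a short window and not measured binding. Each window covers only the bases before a listed start site, and promoters at other start sites of a gene were not read.

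The libraries held 19955975 to 27263935 counts, with a median of 22598474, and the 10 highest genes took 4.76% to 6.80% of them. Replicates correlated at r = 0.988 to 0.995 across genes on the log2 CPM scale in 3 conditions and at 0.966 in the stiff condition at 4 days, whose libraries stood apart from each other. Of the genes described below, 24 passed from 2 to 4 days on the stiff matrix. All 24 kept their direction without stiff replicate 1 or 2 at 4 days. Such fits leave 1 library in that condition and take the spread from the other conditions. For single genes their effect sizes are given below.

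The labelled cell type was also read against markers of other liver cells, some of which had no count in any library and some of which were detected. TTR, HNF4A and FGB of hepatocytes, LYVE1 and CLEC4G of sinusoidal endothelium, CD163, C1QA, VSIG4 and CD5L of macrophages and CFTR of cholangiocytes had no count. From the same lists, SERPINA1 had 104 to 220 counts a library and ASGR1 46 to 84, TEK 32 to 87, CD68 2072 to 2491 and CD14 48 to 205, and KRT7 191 to 465 and SOX9 504 to 1180.

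Levels were compared between genes as FPKM, fragments per length of gene and library depth, which the authors scaled by size factors. VIM averaged 1652 FPKM over the 8 libraries (SD 693) and ranked 18 of 25369 genes. LHX2 followed at 4.89 (SD 0.720), then PDGFRB at 3.19 (SD 0.798), NGFR at 2.47 (SD 0.794) and HAND2 at 1.99 FPKM (SD 0.332). The gap between VIM and LHX2 was far wider than the spread over libraries. The neighbours from LHX2 to HAND2 overlapped in range, at 4.14 to 5.87 for LHX2, 1.88 to 4.31 for PDGFRB, 1.61 to 3.81 for NGFR and 1.65 to 2.62 FPKM for HAND2.

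**Figure D1:**
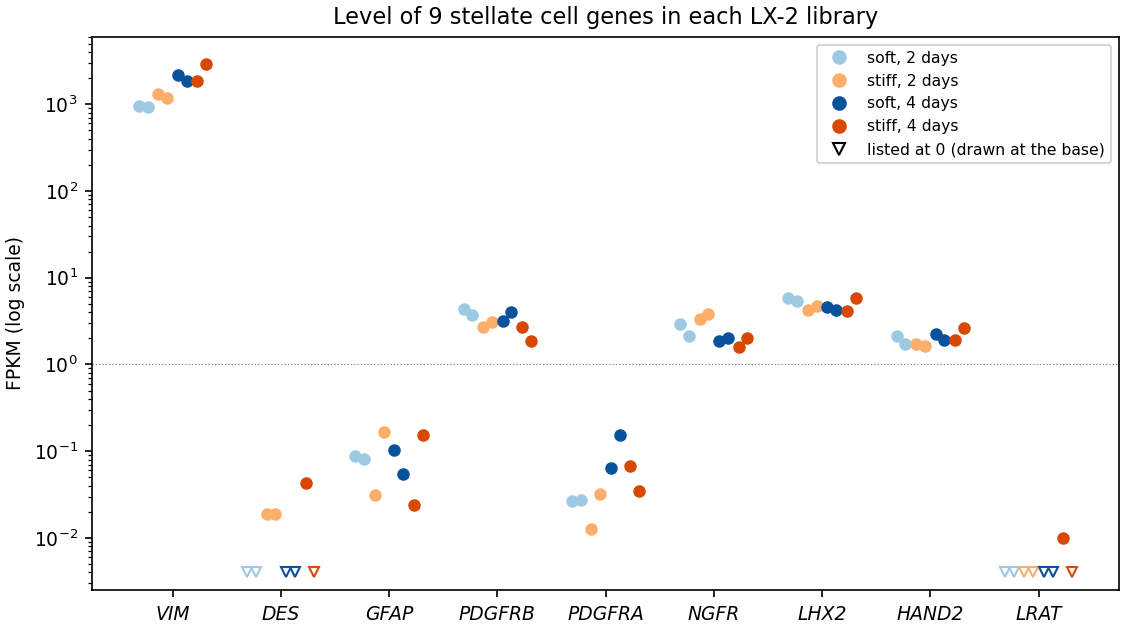
Level of each of the 9 genes in the 8 libraries, in FPKM on a log scale. Points are single libraries coloured by matrix and day, triangles at the base are libraries listed at 0, and the dotted line marks 1 FPKM. VIM lies between 921 and 2938 FPKM, 4 genes lie between 1.61 and 5.87, and DES, GFAP, PDGFRA and LRAT stay under 0.17 FPKM.

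Among the intermediate filament genes, VIM rose with time in culture on both matrices, GFAP was barely detected and DES was at the floor. VIM encodes vimentin, the main intermediate filament of mesenchymal cells, and lies at chr10:17270240-17279592 on the forward strand (GRCh37). On the soft matrix VIM measured 2067 and 1966 TMM-normalised CPM, that is counts scaled by library depth, at 2 days and 4702 and 4039 at 4 days. On the stiff matrix it measured 2776 and 2550 CPM at 2 days and 3999 and 6360 at 4 days. Both 4-day libraries lay above both 2-day libraries on each matrix, and at 4 days the stiff libraries lay on either side of the soft ones.

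The rise of VIM from 2 to 4 days was 2.17-fold on the soft matrix (log2 change 1.12, SE 0.231, 95% interval 0.58 to 1.65, adjusted p = 0.012 in edgeR's quasi-likelihood model, Benjamini-Hochberg adjusted over all tested genes) and 1.94-fold on the stiff matrix (0.96, SE 0.230, 0.43 to 1.49, adjusted p = 0.0204). In these comparisons 27.4% and 27.6% of the 14570 tested genes passed the same threshold, and of the 6 tested members 1 passed on the soft and 2 on the stiff matrix; with 6 genes these shares were near the background. With groups of 2, single libraries decided the call. Without any 1 of the 4 soft libraries the adjusted p of VIM on the soft matrix was 0.0527 to 0.105, with a log2 change of 0.97 to 1.22. On the stiff matrix the call was lost in 6 of 19 alternatives: without stiff replicate 1 or 2 at 2 days (adjusted p = 0.101 and 0.151), without soft replicate 1 or 2 at 2 days (0.0508 and 0.0504), in a fit of the stiff libraries alone (0.125) and in limma on unfiltered FPKM (0.0523). The log2 change stayed between 0.58 and 1.25 in all of these 19. These ends were the values without stiff replicate 2 at 4 days and without replicate 1.

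VIM did not pass for stiffness. At 2 days both stiff libraries lay above both soft libraries, and the log2 difference of stiff against soft was 0.40 (95% interval -0.13 to 0.93, adjusted p = 0.9999). At 4 days it was 0.25 (-0.28 to 0.77, adjusted p = 0.865 in edgeR), and its sign rested on 1 library. It was -0.12 without stiff replicate 2 and 0.55 without stiff replicate 1. VIM shares exonic bases with VIM-AS1 on the opposite strand, and the strand setting of the counting is not given in the sources used here. VIM-AS1 had 30 to 101 counts a library against 54645 to 110441 for VIM, and between 2 and 4 days it rose on stiff (log2 change 1.55, adjusted p = 0.0135 in edgeR, and 1.88 and 1.12 without stiff replicate 1 or 2 at 4 days) and did not pass on soft (0.93, adjusted p = 0.0634).

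DES encodes desmin, the filament protein of muscle and of rodent HSCs (chr2:220283099-220291457, forward). It had 1 count in each stiff library at 2 days, 2 counts in stiff replicate 1 at 4 days and 0 in the 5 other libraries. A count of 0 allows up to 3 counts, which equals 0.0468 to 0.0758 FPKM for DES in these libraries, so DES was not detectable above this floor and no fold change is given.

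GFAP encodes the filament protein of astrocytes, which HSCs also make (chr17:42980527-42994305, reverse). It had 10 and 9 counts in the soft libraries at 2 days, 3 and 16 in the stiff at 2 days, 9 and 5 in the soft at 4 days and 2 and 11 in the stiff at 4 days. In 3 of the 4 conditions, all but soft at 2 days, the replicates lay further apart than the means of the conditions. Although GFAP passed the filter on low counts, its interval for stiff against soft at 2 days ran from -1.78 to 2.25 on the log2 scale, a width that covers changes in either direction. GFAP also shares exonic bases with CCDC103 on the opposite strand, which had 104 to 159 counts a library.

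Of 7 further intermediate filament genes of mesenchymal, muscle and neural cells, 3 were tested and 1 passed. NES, which encodes nestin, was 0.704 and 0.396 CPM on the soft matrix at 2 days and 2.33 and 2.16 at 4 days. On the stiff matrix it was 0.252 and 0.209 CPM at 2 days and 2.01 and 1.96 at 4 days. The groups did not overlap, and NES rose by 2.02 (SE 0.339) on the soft and 3.08 (SE 0.404) on the stiff matrix on the log2 scale, with adjusted p = 0.00596 and 0.0029 in edgeR. SYNM, which encodes synemin, averaged 4.42 FPKM and did not pass.

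The PDGF receptors were unequal in level in every library. PDGFRB (chr5:149493402-149535435, reverse) had 189 to 701 counts, while PDGFRA (chr4:55095447-55164412, forward) had 5 and 5 on soft at 2 days, 2 and 5 on stiff at 2 days, 9 and 23 on soft at 4 days and 9 and 4 on stiff at 4 days. Per length, PDGFRB was 26.2 times PDGFRA in soft replicate 2 at 4 days, where the ratio was lowest (95% interval 17.3 to 41.7), and 212 times in stiff replicate 1 at 2 days, where it was highest (58.2 to 1755). These are exact intervals that cover counting error only.

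PDGFRB was lower on the stiff matrix in the libraries of both days, without passing the test over all genes. The soft libraries held 24.7 and 21.0 CPM at 2 days and 18.1 and 23.6 at 4 days. The stiff libraries held 15.5 and 17.5 CPM at 2 days and 15.4 and 10.9 at 4 days. On each day both stiff libraries lay below both soft libraries. The log2 difference of stiff against soft was -0.47 at 2 days (SE 0.215, 95% interval -0.97 to 0.03, adjusted p = 0.9999) and -0.66 at 4 days (SE 0.220, -1.17 to -0.15, adjusted p = 0.493). Over the mean of both days it was -0.57 (SE 0.154, -0.92 to -0.21, unadjusted p = 0.00644 and adjusted p = 0.293 in edgeR). In bulk RNA, fewer cells with a transcript and less of it per cell cannot be told apart.

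PDGFRB kept a negative difference of stiff against soft in all alternatives run. Over 19 alternatives at 2 days it ran from -0.58 to -0.35, over 19 at 4 days from -0.93 to -0.43 and over 18 for the mean of both days from -0.70 to -0.43. The mean of both days was -0.70 without stiff replicate 1 at 4 days and -0.45 without stiff replicate 2 at 4 days. At 4 days the difference was -0.93 without stiff replicate 1. At 2 days it passed only in a fit of that day's libraries (-0.48, adjusted p = 0.00651 in edgeR), where 667 genes passed. The difference between the stiffness effects of the 2 days was -0.19 (95% interval -0.90 to 0.52, unadjusted p = 0.549 in edgeR). From 2 to 4 days PDGFRB changed by -0.13 on soft (adjusted p = 0.674 in edgeR) and -0.32 on stiff (adjusted p = 0.300). On stiff the change was -0.60 without stiff replicate 1 at 4 days.

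PDGFRA did not enter the test because of its low counts. Its groups held 10 counts on soft and 7 on stiff after 2 days, and 32 and 13 after 4 days. When every gene with a count was fitted, PDGFRA differed by 1.99 (SE 0.686) on the log2 scale between 4 and 2 days on the soft matrix, with adjusted p = 0.0797 in edgeR, and 23 of the 32 counts at 4 days came from replicate 2.

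The ligands were measured as well. Of 4 PDGF genes, all tested, PDGFC rose from 58.8 and 66.9 CPM to 129 and 134 on the soft matrix and from 74.3 and 69.0 to 120 and 110 on the stiff matrix. The groups were apart on both matrices, with log2 changes of 1.07 (SE 0.132, adjusted p = 0.0026) and 0.68 (SE 0.132, adjusted p = 0.00997) in edgeR. PDGFA, PDGFB and PDGFD did not pass in any comparison. PDGFB, the main ligand of PDGFRB, averaged 1.60 FPKM and differed between stiff and soft by -0.48 over the mean of both days (unadjusted p = 0.00796, adjusted p = 0.319 in edgeR). This difference of PDGFB was -0.55 without stiff replicate 1 at 4 days and -0.41 without replicate 2.

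**Figure D2:**
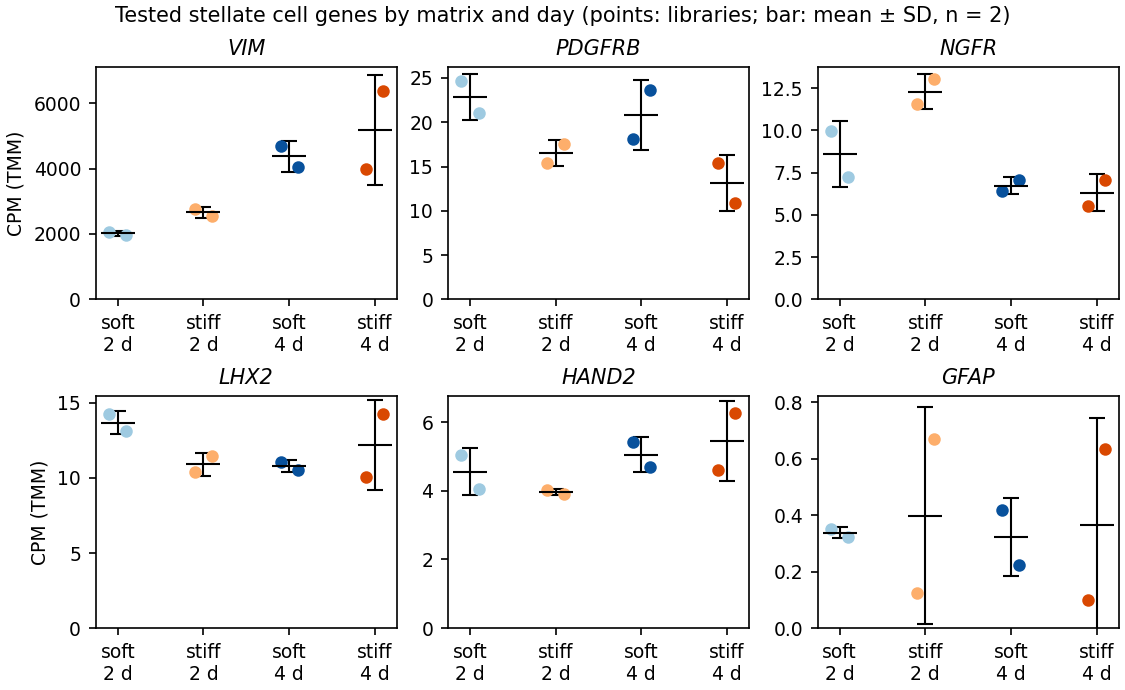
TMM-normalised CPM of the 6 tested genes by matrix and day, where points are libraries and bars give the mean ± SD of 2 libraries, cut at 0 for GFAP. VIM is higher at 4 than at 2 days on both matrices, PDGFRB is lower on stiff than on soft on each day, and NGFR is highest on the stiff matrix at 2 days.

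NGFR fell between 2 and 4 days on the stiff matrix. Its product, the p75 neurotrophin receptor, marks HSCs in human liver, and the gene lies at chr17:47572655-47592370 on the forward strand. NGFR measured 11.5 and 13.0 CPM on the stiff matrix at 2 days and 5.55 and 7.08 at 4 days. On the soft matrix it measured 9.96 and 7.23 CPM at 2 days and 6.39 and 7.08 at 4 days. The stiff libraries at 2 days lay above all 6 others.

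The change of NGFR from 2 to 4 days on the stiff matrix was -0.96 on the log2 scale, 0.513 of the 2-day level (SE 0.217, 95% interval -1.46 to -0.46, adjusted p = 0.0164 in edgeR). This call was lost in 3 of 19 alternatives: without stiff replicate 1 at 2 days (-1.05, adjusted p = 0.0738), without stiff replicate 2 at 2 days (-0.88, adjusted p = 0.128) and in a fit of the stiff libraries alone (-0.96, adjusted p = 0.0792). Without stiff replicate 1 or 2 at 4 days it was -0.80 and -1.15. On the soft matrix the change was -0.35 (95% interval -0.85 to 0.15, adjusted p = 0.253). The matrices were not shown to differ in this change: the interaction was -0.61 (-1.32 to 0.09, unadjusted p = 0.0808 and adjusted p = 0.9997 in edgeR).

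Stiff against soft, NGFR was 0.51 higher at 2 days on the log2 scale (95% interval 0.03 to 0.9997, unadjusted p = 0.0403 and adjusted p = 0.9999 in edgeR) and passed only in a fit of that day's libraries (0.50, adjusted p = 0.0253). At 4 days the difference was -0.10 (-0.61 to 0.42), and it was 0.08 without stiff replicate 1.

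Other neurotrophin genes moved with time. Of 8 neurotrophins and receptors other than NGFR, 5 were tested. SORT1, which encodes sortilin, a partner of p75, rose by 1.25 (SE 0.165) on soft and 1.26 (SE 0.165) on stiff, with adjusted p = 0.00308 and 0.0029 in edgeR. BDNF rose by 0.53 and 0.57 (adjusted p = 0.0257 and 0.0213 in edgeR), calls that were lost in 7 and 8 of 19 alternatives.

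The lineage factors were detected in all conditions and passed in no comparison. LHX2, a LIM homeobox factor whose loss in mice leads to liver fibrosis, lies at chr9:126763949-126795580 on the forward strand. It measured 14.2 and 13.1 CPM on soft at 2 days, 10.4 and 11.4 on stiff at 2 days, 11.1 and 10.5 on soft at 4 days and 10.1 and 14.3 on stiff at 4 days. The soft libraries at 2 days were above the stiff ones of that day and above the soft ones at 4 days, and the stiff libraries at 4 days held both the lowest and the highest value.

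No comparison called LHX2. The log2 difference of stiff against soft was -0.33 at 2 days (95% interval -0.77 to 0.12) and 0.17 at 4 days (-0.28 to 0.62). The change from 2 to 4 days was -0.34 on soft (-0.79 to 0.10, adjusted p = 0.216) and 0.16 on stiff (-0.29 to 0.61). Leaving out either stiff library at 4 days gave -0.36 and -0.37 for the change on soft. The interaction was 0.50 (-0.13 to 1.13), and 0.75 without stiff replicate 1 at 4 days.

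HAND2 encodes a basic helix-loop-helix factor of septum transversum mesenchyme and of HSCs (chr4:174446120-174451380, reverse). It measured 5.03 and 4.07 CPM on soft at 2 days, 4.03 and 3.90 on stiff at 2 days, 5.41 and 4.69 on soft at 4 days and 4.62 and 6.28 on stiff at 4 days. The stiff libraries at 4 days were above those at 2 days, and the soft groups overlapped. HAND2 differed by 0.45 between 4 and 2 days on stiff (95% interval -0.07 to 0.98, adjusted p = 0.169 in edgeR). This difference was 0.66 without stiff replicate 1 at 4 days. The divergent HAND2-AS1, which shares exonic bases with HAND2 on the opposite strand, had 3 to 15 counts a library against 93 to 143.

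Across the 6 tested members, 0 passed for stiff against soft at 2 days, at 4 days or over the mean of both days, and 0 for the change of the stiffness effect. The background was 0%, 0.247%, 0.426% and 0% of 14570 genes in edgeR, and DESeq2 and limma called 0 members in each of the 4 as well. At an unadjusted p under 0.05 the members were NGFR at 2 days and PDGFRB at 4 days and over both days, with 411, 1010 and 1122 genes in all (2.82%, 6.93% and 7.7%), and none for the change of the effect, with 284 genes in all (1.95%). The groups did not overlap in 5 of 6 members at 2 days and 1 of 6 at 4 days, where this held for 48.2% and 25.7% of all tested genes. Between 4 and 2 days it held for 3 of 6 on soft and 4 of 6 on stiff, against 75.3% and 62.7%. The median log2 change of the 6 members lay between -0.13 and 0.11 in the 6 comparisons, and that of all genes between 0.01 and 0.03.

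**Figure D3:**
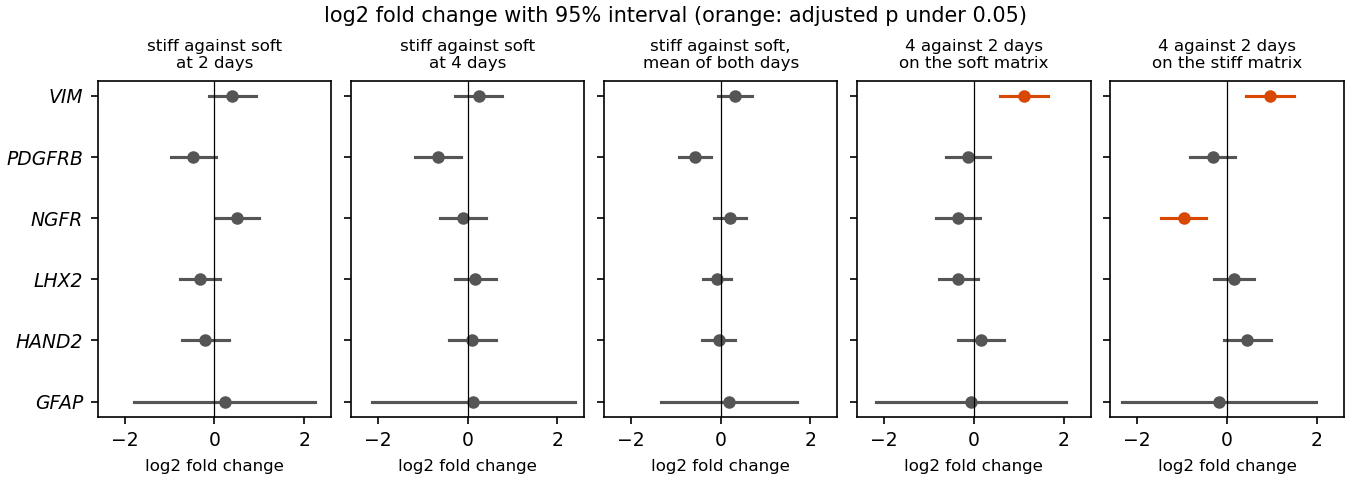
Log2 fold change of the 6 tested genes in 5 comparisons, with points for estimates and lines for 95% intervals, and orange where the adjusted p is under 0.05. VIM is positive on both matrices from 2 to 4 days and NGFR negative on the stiff matrix, no gene is orange in a comparison of stiff with soft, and the GFAP intervals span over 3 log2 units.

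Retinol storage was read through LRAT and 9 genes of uptake, binding and storage. LRAT (chr4:155548097-155674272, forward) had 1 count in stiff replicate 1 at 4 days and 0 in the 7 other libraries. A count of 0 allows up to 3 counts, or 0.0215 to 0.0349 FPKM for LRAT, so its transcript was not detectable at this depth in any condition. RBP2 and CRABP1, which encode cytosolic binding proteins of retinol and retinoic acid, were listed at 0 counts in all 8 libraries.

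The other carriers and storage genes were measured. PLIN2, which encodes a lipid droplet coat protein, averaged 8.57 FPKM, DGAT1, an acyltransferase that can also esterify retinol, 4.87, FABP5, a fatty acid binding protein that also carries retinoic acid, 4.48, and CRABP2, the carrier of retinoic acid, 2.52 FPKM. DGAT1 fell from 30.3 and 26.2 CPM to 10.7 and 8.39 on the soft matrix and from 23.9 and 24.9 to 9.28 and 11.9 on the stiff matrix. All 4-day libraries were below all 2-day libraries, and the log2 changes were -1.56 (SE 0.190, adjusted p = 0.0025) and -1.21 (SE 0.190, adjusted p = 0.00509) in edgeR.

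STRA6, the cell surface receptor that takes up retinol from its plasma carrier, was low and fell with time. It had 38 and 31 counts on soft at 2 days and 3 and 11 at 4 days, and 10 and 25 on stiff at 2 days and 2 and 2 at 4 days. The 4-day libraries lay below those at 2 days on soft and on stiff. The log2 changes were -1.92 (SE 0.607, adjusted p = 0.0498) and -2.73 (SE 0.822, adjusted p = 0.0428) in edgeR, and the calls were lost in 10 of 16 and 6 of 15 alternatives. FABP5 rose by 1.24 and 1.27 (adjusted p = 0.0461 and 0.0436 in edgeR), calls lost in 11 and 13 of 19 alternatives. On stiff the change of FABP5 was 1.73 without stiff replicate 1 at 4 days and 0.60 without replicate 2.

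None of the 5 genes that can hydrolyse retinyl esters passed in any comparison, with 4 tested. PNPLA2, the adipose triglyceride lipase, averaged 26.8 FPKM, LIPE 2.68, PNPLA3 0.650 and CES1 0.644, while LPL had at most 2 counts in a library.

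Enzymes that oxidise or reduce retinol and retinal were present at unequal levels. RDH11 averaged 64.7 FPKM and RDH10, the main retinol dehydrogenase of the embryo, 2.23. Among the retinal dehydrogenases, ALDH1A3 averaged 8.18 FPKM and ALDH1A2 0.351, and ALDH1A1 had at most 2 counts in a library. ALDH1A2 had 16 and 8 counts on soft at 2 days, 26 and 21 on stiff at 2 days, 28 and 51 on soft at 4 days and 51 and 32 on stiff at 4 days. It was lowest on soft at 2 days, and it rose by 2.07 there (SE 0.451, adjusted p = 0.0146 in edgeR, lost in 4 of 16 alternatives). On stiff it did not pass (1.14, adjusted p = 0.0752 in edgeR), and the change was 1.33 without stiff replicate 2 at 4 days. ADH5 rose by 0.47 and 0.51 (adjusted p = 0.0290 and 0.0224 in edgeR), each lost in 9 of 19 alternatives.

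CYP26B1, which degrades retinoic acid, rose on the soft matrix from 4.93 and 4.32 CPM to 10.2 and 10.6 (log2 change 1.17, SE 0.273, adjusted p = 0.0182 in edgeR). On the stiff matrix it went from 3.65 and 4.36 to 8.30 and 4.55 CPM and did not pass (0.69, adjusted p = 0.107). The change of CYP26B1 there was 1.04 without stiff replicate 2 at 4 days and 0.18 without replicate 1. CYP26A1 and CYP26C1 had at most 3 counts in any library.

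Of the 6 nuclear receptors for retinoids, RARA averaged 6.01 FPKM, RXRA 5.74, RARG 4.61, RXRB 3.18 and RARB 1.25, and RXRG had at most 1 count in a library. RARG fell on the stiff matrix from 15.8 and 18.8 CPM to 11.1 and 9.79 (log2 change -0.72, SE 0.157, adjusted p = 0.0143 in edgeR). RXRA fell there from 52.0 and 47.7 to 37.1 and 33.9 CPM (-0.49, SE 0.134, adjusted p = 0.0312 in edgeR, lost in 8 of 19 alternatives). RARB, a receptor that is itself a target of retinoic acid, held 4.01 and 4.17 CPM on soft and 2.44 and 2.09 on stiff at 2 days, and 6.63 and 9.24 on soft and 4.91 and 2.25 on stiff at 4 days. The stiff libraries of each day lay below the soft ones, and the difference over both days was -0.99 (unadjusted p = 0.00406, adjusted p = 0.239 in edgeR). It was -1.33 without stiff replicate 1 at 4 days and -0.77 without replicate 2.

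Together with LRAT these lists hold 37 genes. Of the 36 without LRAT, 24 were tested, 0 passed for stiff against soft on either day, and 6 passed between 4 and 2 days on each matrix, 4 up and 2 down on soft and 2 up and 4 down on stiff. That is 25% of the 24 on each matrix, against 27.4% and 27.6% of all tested genes. None of 9 genes known to respond to retinoic acid passed in any comparison, with 6 of them tested and RARB, CRABP2, DHRS3 and CYP26A1 also in the lists above. Their median log2 difference of stiff against soft was -0.62 at 2 days and -0.58 at 4 days, against 0.01 and 0.02 over all genes, and RARB and RARRES2 had unadjusted p = 0.00406 and 0.012 over both days in edgeR (adjusted p = 0.239 and 0.384). The difference of RARRES2 over both days was -0.61 and -1.21 without stiff replicate 1 or 2 at 4 days.

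**Figure D4:**
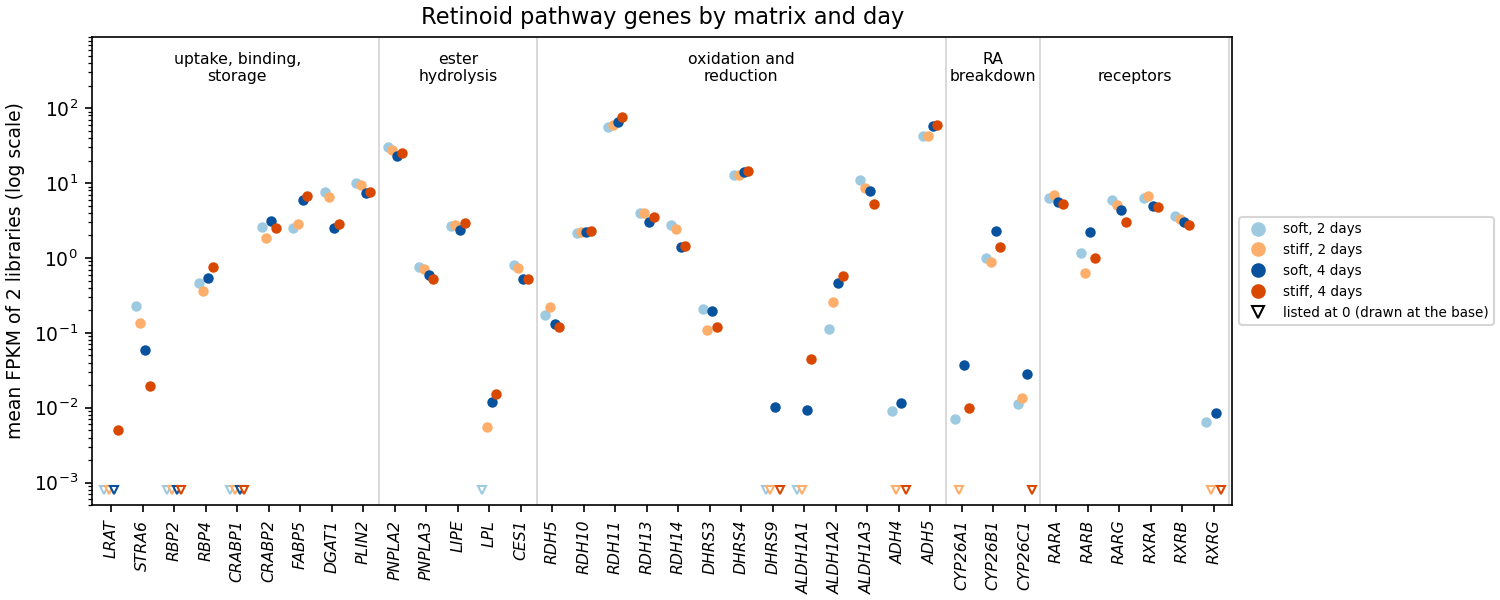
Mean FPKM of 2 libraries for LRAT and 35 further retinoid genes, grouped by step of the pathway, on a log scale. Colours give matrix and day and triangles at the base mark conditions listed at 0. LRAT, RBP2 and CRABP1 lie at or near 0 in all conditions, RDH11, ADH5 and PNPLA2 lie above 20 FPKM, and DGAT1 and STRA6 are lower at 4 than at 2 days.

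Further stellate genes were read to place the members. Of 9 other transcription factors of the lineage, NR2F2 averaged 106 FPKM, GATA4 12.0, FOXF1 5.06 and WT1 4.65, against 0.328 for TCF21, 0.226 for PPARG and 0.131 for GATA6. TCF21 and FOXF1 rose on soft by 1.54 and 0.51 (adjusted p = 0.0462 and 0.0485 in edgeR), calls lost in 10 of 17 and 13 of 19 alternatives, and GATA4 fell by 0.51 on stiff on the log2 scale (adjusted p = 0.0360 in edgeR, lost in 8 of 19). Of 13 other stellate markers, 6 were tested. HGF, DCN, LUM, CYGB and RELN averaged 0.00613, 0.0113, 0.0924, 0.0313 and 0.297 FPKM. NTM rose on soft by 0.89 (adjusted p = 0.0187 in edgeR) and RGS5 on both matrices by 0.73 and 0.74 (adjusted p = 0.0346 and 0.0368 in edgeR), calls lost in 9 and 11 of 17 alternatives. On stiff the change of RGS5 was 0.46 without stiff replicate 1 at 4 days and 0.96 without replicate 2.

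Several markers of activated HSCs were high. S100A6 averaged 684 FPKM, TAGLN 320, TIMP1 250 and COL1A1 130, while COL1A2 averaged 0.515, POSTN 0.0457 and FAP 0.0403. Of 12 such genes 10 were tested, and ACTA2, LOX and SPP1 rose on both matrices between 2 and 4 days, although the call of LOX on soft was lost in 10 of 19 alternatives. ACTA2, which encodes smooth muscle actin, rose by 0.97 on soft and 0.84 on stiff (SE 0.178 and 0.181, adjusted p = 0.00808 and 0.0142 in edgeR), alongside VIM.

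Markers of other cell types also moved with time, and their part in the changes of VIM and NGFR was not tested. Of 6 cholangiocyte markers 3 were tested and SOX9 rose on both matrices (log2 change 1.45 on soft and 0.87 on stiff). Their summed level was 12.8 to 15.1 FPKM on soft and 12.5 to 13.1 on stiff at 2 days, and 20.0 to 23.4 and 16.1 to 21.7 at 4 days, with EPCAM at 0.0501 FPKM on average. Of 7 portal fibroblast and mesothelial markers 4 were tested: THY1 (log2 change 1.49 and 2.06) and MSLN (1.77 and 2.32) rose on both matrices, UPK3B fell on both (calls lost in 6 and 3 of 16 alternatives) and FBLN2 on stiff, and the sums were 83.9 to 106, 77.4 to 80.9, 83.1 to 89.8 and 69.1 to 70.6 FPKM in the same order of conditions. Of 8 macrophage and leukocyte markers 3 were tested and PTPRC rose (log2 change 2.06 and 1.56, calls lost in 3 and 6 of 17 alternatives), and the sums, 48.2 to 51.0, 57.2 to 58.1, 55.9 to 56.4 and 61.4 to 66.6 FPKM, were mostly CD68. Hepatocyte markers, 2 of 10 tested, and endothelial markers, 3 of 8 tested, had no call, and their sums ran from 3.10 to 5.61 and from 0.444 to 1.03 FPKM, led by ASGR1 (1.94) and TEK (0.470).

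The genes whose pattern over the 8 libraries was most like a member's were named by Pearson's r of log2 CPM among 12164 or 12165 genes. They were FAM115C (0.984), SMAD3 (0.979) and FADS2 (0.968) for PDGFRB, HNRNPD (0.995), PTP4A2 (0.994) and TMEM41A (0.993) for VIM, and NAIF1 (0.971), DOLK (0.967) and SPHK2 (0.960) for NGFR. For HAND2 they were PGAM1 (0.984), SLBP (0.975) and UQCR10 (0.974), for LHX2 ZFYVE21 (0.960), FDPS (0.952) and LOC728743 (0.938), and for GFAP BOLA3-AS1 (0.920), WDR25 (0.917) and IFI27L1 (0.914). Among the members themselves the highest r was 0.739, between VIM and HAND2, and the lowest -0.641, between VIM and PDGFRB. The 8 points share 4 conditions and their library depth, and the values are a description of likeness only.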

How the data were processed

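RNA-seq libraries of LX-2 cells covered 4 conditions with 2 libraries each, grouped by the sample labels. The authors cleaned reads with Trim Galore, mapped them to hg19 by STAR 2.7.1a, and deposited counts per gene from htseq-count, which are raw. The deposited FPKM of the same genes are scaled by size factors, and the gene lengths they imply were whole (tolerance 0.01) in 100% of 20029 genes. The annotation and strand setting are not given in the sources used here.

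Counts were tested in R 4.3.3 with edgeR 4.0.16 (filterByExpr, TMM factors 0.870 to 1.08, quasi-likelihood, Benjamini-Hochberg over 14570 genes) in 1 fit of 4 conditions. The study used DESeq2, which was run as an alternative (version 1.42.0), as was limma 3.58.1 on log2(FPKM + 1) and log2(FPKM + 0.1). The threshold was an adjusted p under 0.05. The edgeR, DESeq2 and limma fits were tried on simulated data, and the other steps were not. Libraries held 19955975 to 27263935 counts, and a gene at up to 3 counts in every library is called at the floor.

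The members and lists were chosen with earlier results of these data known. Named from other lists were genes called in at least 1 comparison, at most 4 a list, plus the highest gene of each other cell type, and the 3 genes most correlated with each member among those with mean log2 CPM of at least 1. Other list genes, given for their level or for an unadjusted p, were named after their values were seen. Some list genes are counted in their lists but not reported here by name. The study states 2 independent experiments per condition, so p-values measure the spread between cultures of 1 line. Replicate numbers did not pair the libraries (r of deviations -0.490 to 0.0773).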

Additional observations from a re-analysis of the deposited data

How the results depend on the processing

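Of 651 values of the 6 tested members under 19 alternatives, 598 kept direction and side of the threshold, 13 lost the call, 13 gained it and 27 turned direction; all but 2 of the 27 came from leaving out 1 library. The cause was not tested. The 2 were GFAP (-0.0107) and HAND2 (-0.0231) for stiff against soft at 4 days with no scaling factors. Leaving out 1 library turned the log2 change as follows, lowest and highest value first to last: at 2 days GFAP -1.38 to 0.98; at 4 days GFAP -1.65 to 0.98, HAND2 -0.12 to 0.32, LHX2 -0.0899 to 0.415, NGFR -0.271 to 0.0819 and VIM -0.12 to 0.55; over both days GFAP -0.71 to 0.60, HAND2 -0.164 to 0.0596 and LHX2 -0.213 to 0.0419; from 2 to 4 days on soft GFAP -0.60 to 0.31 and PDGFRB -0.340 to 0.0208, on stiff GFAP -1.97 to 1.44 and LHX2 -0.12 to 0.39; and for the change of the stiffness effect GFAP -1.88 to 1.51, PDGFRB -0.454 to 0.0525 and VIM -0.51 to 0.15.

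Genes passing at 2 days, 0 as reported, were 28 with DESeq2, 1 with limma on log2(FPKM + 0.1), 7 with limma without a filter and 667 in a separate fit, which called 3 members (PDGFRB, VIM and NGFR). At 4 days, 36 as reported, they were 164 with DESeq2, 20 with limma without a filter and 0 in a separate fit. Over both days, 62 as reported, they were 218 with DESeq2. From 2 to 4 days a separate fit gave 7261 on soft (3985 as reported) and 0 on stiff (4024 as reported). For members on stiff, 2 as reported, it gave 0 and limma without a filter 1. For the change of the stiffness effect, 0 as reported, DESeq2 and limma on log2(FPKM + 0.1) gave 3 each. Without 1 library the genes passing ranged from 0 to 122 at 2 days, 0 to 4676 at 4 days, 0 to 2968 over both days, 347 to 7941 on soft, 470 to 7826 on stiff and 0 to 3139 for the change, and the members from 0 to 0, 0 to 2, 0 to 2, 0 to 2, 0 to 4 and 0 to 1. The widest counts came without a stiff library at 4 days.

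A block for the replicate number left 14 genes at 4 days, 29 over both days, 2626 on soft and 2543 on stiff, and no member's call changed. A crossed pairing at 4 days, chosen after the data were seen since the 4-day deviations had r = -0.490, gave 62 at 4 days. Depth limits DES, LRAT, PDGFRA and GFAP, and 2 libraries a condition limit the rest.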
